A study of Rattus norvegicus with 12 samples.

Results

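The regions described here are stretches of retinal RNA enriched for N6-methyladenosine (m6A) that were found mostly, but not cleanly, in diabetic rats. Peak lists of 6 animals were merged wherever they overlapped by at least 1 base, which gave 12467 union regions. A region was kept when at least 2 of the 3 diabetic lists and at most 1 of the 3 control lists held a peak in it. Regions with a peak in all 3 diabetic lists and no control list were left out. The rule took 1137 regions, 9.12% of the union, and these are called diabetes-leaning below. Since presence in the lists chose them, presence and enrichment in these regions are given as a description, with no test.

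The study immunoprecipitated m6A-bearing RNA fragments from the retina of male Sprague-Dawley rats and sequenced them beside unselected input RNA (MeRIP-seq). The 3 diabetic animals (genotype label Diabetic, file label T1DM) were given streptozotocin, a beta cell toxin, at 60 mg/kg by intraperitoneal injection on 5 days, after a 12 h fast. The 3 control animals (genotype label WT) were given citrate buffer as vehicle on the same schedule. Diabetes was defined by a fasting blood glucose above 16.7 mmol/L measured 1 week after the last injection. The labels give neither the glucose of a single animal nor the age at which the retina was taken. Body weight was 107 ± 3.59 g in controls and 102 ± 1.81 g in diabetic animals (SD, n = 3 each). Diabetes in this model follows from chemical loss of beta cells, in animals that are not otherwise altered according to the labels.

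m6A is the most common internal modification of mRNA. A nuclear methyltransferase complex built on METTL3 and METTL14 places it, mostly near stop codons, in long internal exons and in the untranslated tail, and the demethylases FTO and ALKBH5 can remove it. Proteins with a YTH domain bind the mark and influence splicing, translation and decay of the transcript. The retina is a layered neural tissue whose vessels and neurons are both damaged in long-standing diabetes.

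Control replicate 3 stood apart from the other control libraries before any selection. Its list held 10160 regions, against 9082 and 9103 in control replicates 1 and 2 and 9731, 10552 and 9998 in diabetic replicates 1, 2 and 3. The smaller of the IP and input library of an animal sets how weak a peak can be called. It had 8661200, 8175227 and 9030946 reads for control replicates 1, 2 and 3, and for diabetic replicates 1, 2 and 3 it had 8729247, 10186285 and 12354616. At the genome-wide background floor the weakest call had a fold enrichment of 1.96 to 2.04 in the control lists and 1.85 to 1.97 in the diabetic lists. A region without a peak is therefore one in which enrichment was not called at this depth, not one without m6A. List length did not follow these read numbers alone, since control replicate 3 had fewer reads than diabetic replicate 3 but a longer list. Median fold at regions in all 6 lists was 5.63, 5.63 and 6.98 in control replicates 1, 2 and 3. In diabetic replicates 1, 2 and 3 it was 6.25, 6.65 and 6.09. The part of these differences in list length was not tested.

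Most diabetes-leaning regions also had a peak in a control animal. Of the 1137 regions, 854 (75.1%) had 1 control peak and 283 had none. By number of lists, 409 regions were held by 3 diabetic and 1 control list, 445 by 2 diabetic and 1 control list and 283 by 2 diabetic lists alone. The same rule with the groups exchanged took 452 control-leaning regions, 3.63% of the union. Diabetes-leaning regions thus outnumbered control-leaning ones by a ratio of 2.52. When every list was shortened to its 9082 regions with the highest −log10 p, the counts were 761 and 629, a ratio of 1.21. The excess on the diabetic side therefore moved with the length of the lists, and what part of it list length accounts for was not tested further.

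A single control library supplied most of the control peaks. Control replicate 3 had a peak in 625 of the 854 regions with a control peak (73.2%, Wilson 95% interval 70.1 to 76.0%). Control replicate 1 held 140 of them (16.4%, 14.1 to 19.0%) and control replicate 2 held 89 (10.4%, 8.55 to 12.7%). These intervals cover counting error only. Among regions in 3 diabetic lists and 1 control list the share of control replicate 3 was 80.0% (327 of 409). Over all union regions the control lists had a peak in 70.0%, 69.5% and 80.2% of regions. Since 56.9% of the union is in all 6 lists, this is no baseline for which control list stands alone. Outside the rule, regions in 1 control list and no diabetic list numbered 197, 375 and 413 for control replicates 1, 2 and 3. With diabetic replicate 2 as the only other list they numbered 62, 31 and 200, with replicate 1 10, 35 and 63, and with replicate 3 50, 8 and 62. Diabetic replicates 1, 2 and 3 held 849, 952 and 882 of the diabetes-leaning regions. Of the 728 regions in 2 diabetic lists, diabetic replicate 1 was the missing list in 288, diabetic replicate 3 in 255 and diabetic replicate 2, whose list was the longest, in 185. Without control replicate 3, with the rule applied to the 5 other lists, 1796 regions were diabetes-leaning. Leaving out control replicate 1 or 2 gave 1673 and 1664, and leaving out diabetic replicate 1, 2 or 3 gave 591, 510 and 575, where a rule over fewer lists takes other combinations by construction.

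**Figure D1:**
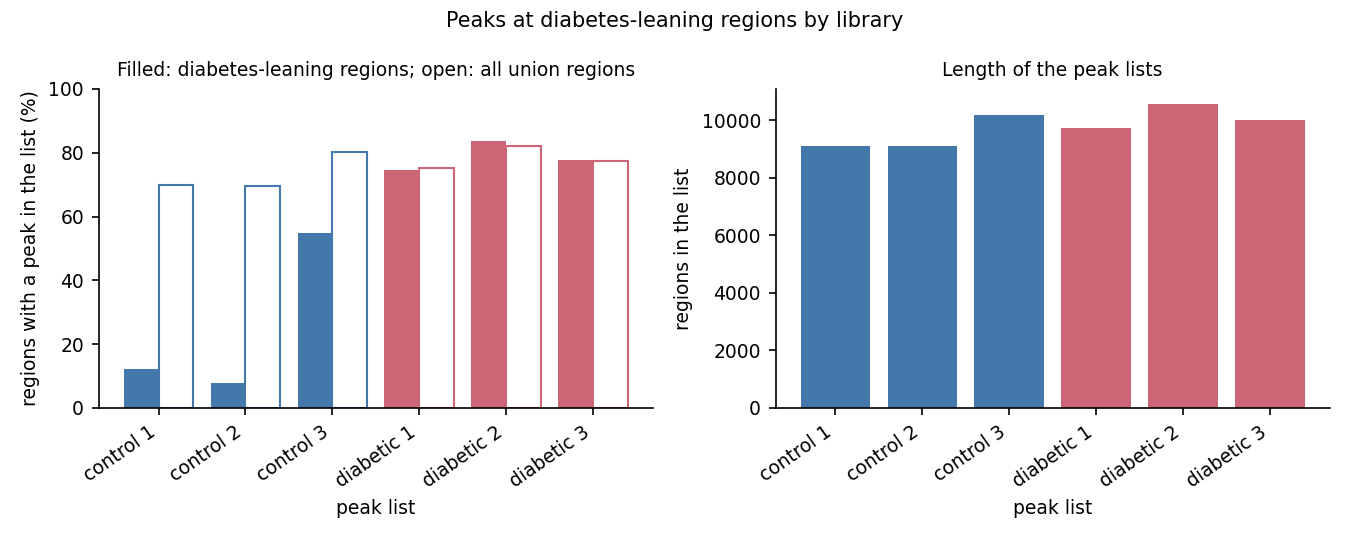
Left, share of regions (%) with a peak in each of the 6 lists, for the 1137 diabetes-leaning regions (filled) and all 12467 union regions (open); right, number of regions in each list, on an axis from 0. Control replicate 3 held a peak in 55.0% of the diabetes-leaning regions, against 12.3% and 7.83% in control replicates 1 and 2.

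The 15 combinations of lists that the rule allows were filled very unequally. The combination of control replicate 3 with all 3 diabetic replicates had 327 regions. It was the most frequent of the 15 possible sets of 4 lists, with 41.2% of all regions found in exactly 4 lists. The next sets of 4 by size had 2 control lists each: control replicates 1 and 3 had 119 regions with diabetic replicates 2 and 3, and 59 with diabetic replicates 1 and 2. Control replicate 1 with all 3 diabetic replicates had 50 regions and ranked 4, and control replicate 2 with all 3 had 32 and ranked 8. Among sets of 3 lists, 133 regions were held by control replicate 3 with diabetic replicates 2 and 3, and 114 by control replicate 3 with diabetic replicates 1 and 2, beside the 137 regions found in the 3 diabetic lists alone. Control replicates 1 and 3 with diabetic replicate 2 had 97. Among pairs of lists, the most frequent was not a diabetic pair: control replicate 3 and diabetic replicate 2 shared 200 regions found in no other list. Diabetic replicates 2 and 3 shared 109, replicates 1 and 2 shared 90 and replicates 1 and 3 shared 84. The longest control list and the longest diabetic list therefore shared more regions than any 2 diabetic lists did.

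**Figure D2:**
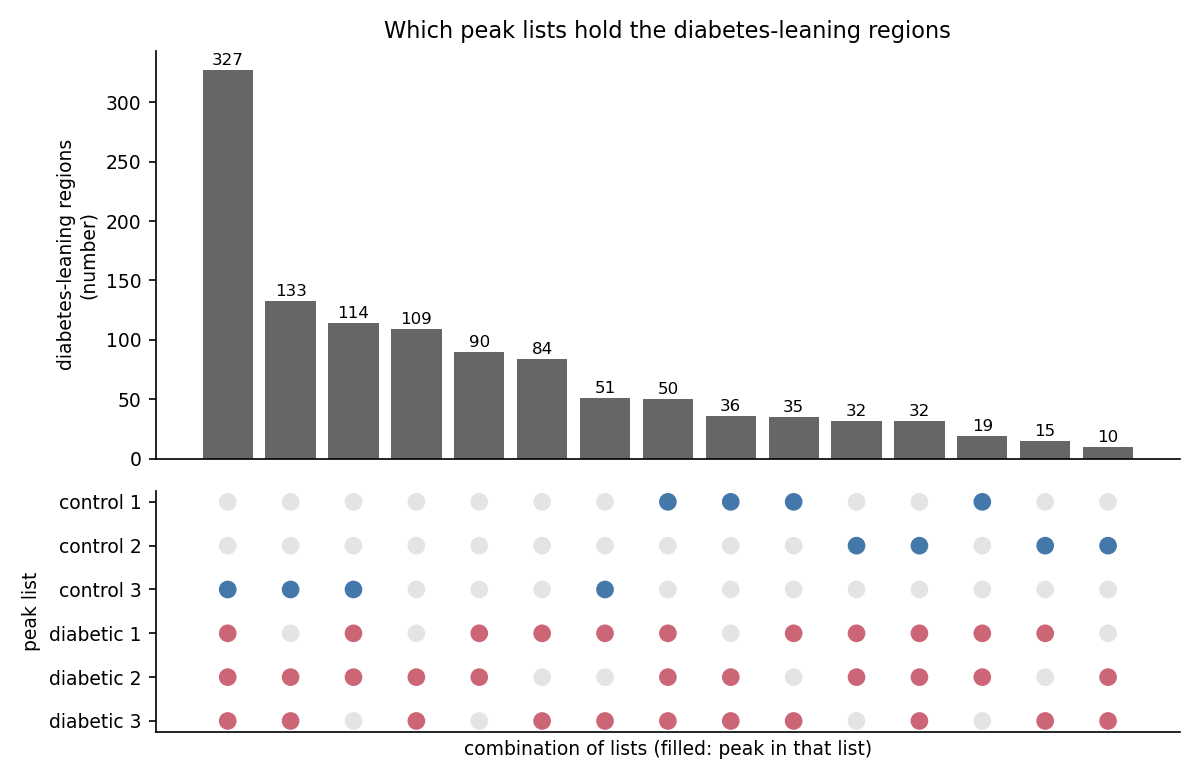
Number of diabetes-leaning regions in each of the 15 combinations of peak lists; filled dots mark the lists that hold a peak (blue, control; red, diabetic). The combination of control replicate 3 with all 3 diabetic lists holds 327 regions, and the 3 pairs of diabetic lists hold 109, 90 and 84.

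Diabetes-leaning regions were narrow and weakly enriched. Their median width was 204 bases (quartiles 164 and 276), against 437 bases for the 7098 regions found in all 6 lists. Fold enrichment, the authors' ratio of IP coverage at the summit to background, had a median of 2.88 (quartiles 2.53 and 3.32), against 6.30 for the shared regions. The background is local input where that exceeds the genome-wide floor, and the floor otherwise. It was over 10% above the floor in at least 1 list at only 20.6% of members. For most members fold was therefore coverage over a near constant of the library, not over local input. Within single lists their median fold was 2.94, 2.87 and 3.05 in control replicates 1, 2 and 3, and 2.97, 2.90 and 2.81 in diabetic replicates 1, 2 and 3. This placed the median member between the 13.8th and 16.6th percentile of each list. A fold above 5 in any list was reached by 65 regions (5.72%). Their peaks were nonetheless mostly clear of the calling threshold: median −log10 q lay between 8.51 and 11.8 in the 6 lists, and 14.1 to 20.7% of peaks had a −log10 q under 5. The contrast with regions in all 6 lists is built in, since calling in every list selects strong peaks and merges more of them. Regions in 1 diabetic and 1 control list had 172 bases and 2.84-fold. Those in 2 diabetic and 2 control lists had 227 bases and 2.96-fold.

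Among diabetes-leaning regions, those in more lists were wider and more enriched. Part of this order is built in. The width is that of the merged region, which more lists can only widen, and a stronger peak is more easily called in several lists. Median widths were 178, 202 and 220 bases for regions in 2 diabetic and 0 control, 2 and 1, and 3 and 1 lists, and median folds were 2.74, 2.84 and 3.05. Just outside the rule, regions in 1 diabetic list alone had 136 bases and a fold of 2.71, those in 3 diabetic lists alone 198 bases and 2.82, and those in 3 diabetic and 2 control lists 250 bases and 3.26. Among control-leaning regions the medians were 186 bases and 3.08-fold. Regions just inside and just outside the rule thus lay close together in fold. In width they were less close, with 136 bases for 1 diabetic list alone against 178 for 2. Several summits in at least 1 list were called in 246 members (21.6%), against 55.1% of shared regions. Where a region was called, its strongest summit lay at nearly the same place in each list, with a median spread of 19 bases, and within 50 bases in 79.1% of members. This was no trait of the members, since all union regions had a median spread of 19 bases and 79.5% within 50 bases.

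**Figure D3:**
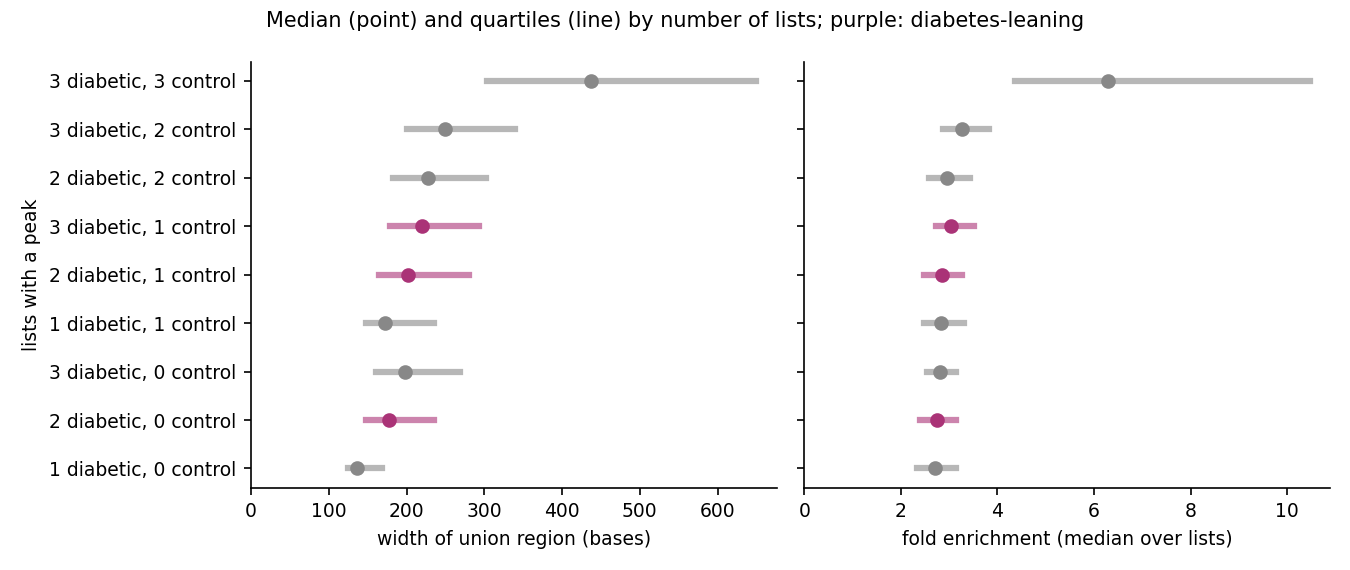
Median (point) and quartiles (line) of width in bases and of fold enrichment (median over the lists with a peak) for union regions by number of diabetic and control lists that hold them. The 3 diabetes-leaning classes (purple) sit between 178 and 220 bases and between 2.74 and 3.05-fold. Regions in all 6 lists sit at 437 bases and 6.30-fold, a contrast built in by calling in every list.

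In regions with 1 control and 3 diabetic peaks the control value could be set beside the diabetic values. Each fold was placed by the share of the 7098 shared regions of the same list that it exceeded, a yardstick made of the same regions in every list. Of the 327 regions with a peak in control replicate 3, the control placed below all 3 diabetic values in 125 (38.2%), inside their range in 146 (44.6%) and above them in 56 (17.1%). With control replicate 1 as the carrier, 9 of 50 regions had the control below, 28 inside and 13 above. With control replicate 2 the numbers were 8, 13 and 11 of 32. Over all 409 regions the control was the lowest of the 4 in 142 (34.7%), inside the diabetic range in 187 (45.7%) and the highest in 80 (19.6%). In control replicate 3 the shared regions had a median fold of 6.98, against 6.25, 6.65 and 6.09 in diabetic replicates 1, 2 and 3. The same fold can therefore place lower in control replicate 3. By order alone 1 value of 4 is the lowest in 1 of 4 regions, and the highest in as many. The same shares over all shared regions were not computed. No test was made, because the rule used the same lists.

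Among regions in 3 diabetic lists and 1 control list, the leading ones were ranked by the lowest percentile of fold enrichment in the lists that hold them. The first, of 180 bases, was found on chromosome 10 from 48699758 to 48699937, and had a fold of 5.94 in control replicate 2 and 6.92, 8.81 and 5.34 in diabetic replicates 1, 2 and 3. The second, on chromosome 2 from 104788714 to 104789122, had folds of 4.79 in control replicate 1 and 5.55, 5.84 and 6.13 in the diabetic lists. In the second the control was the lowest of the 4 values, and in the first it lay inside the diabetic range. The third, on chromosome 10 from 31946616 to 31947032, had its highest fold in the control list, with 8.92 in control replicate 2 against 5.03, 4.94 and 4.39. The next, all with control replicate 3, lay on chromosome 1 from 257463330 to 257463510 (4.70 in the control, 4.33, 5.90 and 4.78 in diabetic replicates 1 to 3), chromosome 1 from 157468703 to 157468854 (5.17 against 5.18, 4.14 and 5.59) and chromosome 7 from 25680896 to 25681020 (6.82 against 5.29, 5.0 and 4.01). In the last of these the control again exceeded every diabetic list, while in the other 2 it lay within their range. Genes, exons and sequences at these positions were not analysed here.

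Regions in 2 diabetic lists and 1 control list included the strongest diabetes-leaning region. It lay on chromosome 1 from 196964879 to 196965947 and, at 1069 bases, was also the widest. Its folds were 15.9 in control replicate 2, 25.4 in diabetic replicate 1 and 11.8 in diabetic replicate 3, with pileups of 268, 583 and 298. The other 3 libraries had no peak there. A region on chromosome 20 from 16447527 to 16447829 had folds of 6.26 in control replicate 2 and 5.81 and 9.25 in diabetic replicates 2 and 3. With the first chromosome 10 region, these were the 3 members that exceeded a fold of 5 in every list that held them, a group chosen after its values were seen. The region on chromosome 5 from 150084561 to 150084712, 337 bases from a shared region, had 4.96 in control replicate 3 and 8.29 and 4.95 in diabetic replicates 2 and 3.

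The other 3 leading regions of this class had the same lists, control replicate 1 with diabetic replicates 1 and 3. They lay on chromosome 7 from 145728188 to 145728326 (folds 6.93, 7.32 and 4.74), chromosome 1 from 270827 to 270970 (4.90, 5.36 and 4.39) and chromosome 13 from 88356996 to 88357137 (5.41, 4.57 and 4.32). All 3 were 139 to 144 bases long and over 100 kb from any shared region. This combination held 35 regions in all.

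Regions in 2 diabetic lists and no control list were weaker. The leading one, on chromosome 20 from 32381449 to 32381596, had folds of 4.88 and 4.48 in diabetic replicates 1 and 2. It was followed by chromosome 1 from 15715380 to 15715557 (6.73 and 4.22 in replicates 1 and 3), chromosome 16 from 81449201 to 81449417 (4.26 and 5.16 in replicates 2 and 3) and chromosome 17 from 20363972 to 20364115 (4.54 and 4.09 in replicates 2 and 3). Then came chromosome 18 from 29469950 to 29470115 (4.18 and 4.32 in replicates 1 and 2) and chromosome 5 from 146952168 to 146952312 (4.08 and 3.85 in replicates 2 and 3). The 6 regions were 144 to 217 bases long. Of the 283 regions of this class, 7 exceeded a fold of 5 in any list.

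Most diabetes-leaning regions lay away from regions that every animal shared, as did regions found in a single list. The median distance to the nearest region in all 6 lists was 38895 bases, and 376 members (33.1%) were over 100 kb away. Regions in 1 diabetic list alone had a median of 38033 bases and 34.8% over 100 kb away. Those in 1 control list alone had 35364 bases and 32.2%, and control-leaning regions 23530 bases and 27.4%. Within 1 kb lay 174 (15.3%, Wilson 95% interval 13.3 to 17.5%), within 10 kb 394 (34.7%). Control-leaning regions had 20.4% within 1 kb (16.9 to 24.3%), and regions in a single diabetic list 14.7%. The farthest member, on chromosome X from 57004041 to 57004243, was 3303409 bases from a shared region and had folds of 3.27 and 2.12 in diabetic replicates 2 and 3. A library without a peak at a member seldom had one beside it: a region within 1 kb was present in 17.8 to 27.1% of such cases in the 6 lists, and none lay within 100 bases.

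Chromosome X held more of the diabetes-leaning regions than its share of the union. It had 58 members, 5.10% (Wilson 95% interval 3.97 to 6.54%), against 2.46% of all union regions, 1.83% of shared regions and 1.99% of control-leaning regions. Of all 307 union regions on X, 18.9% were diabetes-leaning, while the shares on chromosomes 1 to 20 ran from 7.36 to 11.4%. Shared regions are 56.9% of the union and cannot be members, but only 130 of the 307 on X. Comparisons with the union are therefore not like for like and overstate the excess. The interval covers counting error only and takes neighbouring regions as independent. Diabetic replicates 1 and 3 held 50 and 48 of the X members and diabetic replicate 2 held 33. Control replicates 1, 2 and 3 held 8, 2 and 26. Peaks in diabetic replicates 1 and 3 without replicate 2 were seen in 25 of the 58 X members (43.1%), against 16.3% of all members. The 25 include all 11 members of 2 runs of regions on X, so a few loci supply many of them. Without the 2 runs of regions on X described next, the X share was 4.17% (47 of 1126). With lists of equal length it was 5.65%, but without diabetic replicate 1 or 3 it was 3.21 and 3.30%, and without control replicate 3 it was 3.79%, so the size of the X share depended on each of these 3 libraries.

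Neighbouring diabetes-leaning regions had peaks in exactly the same animals more often than distant ones, with many such pairs from a few loci. Adjacent members no more than 1 kb apart had identical lists in 13 of 32 pairs (40.6%), and those 1 to 5 kb apart in 10 of 28 (35.7%). Among adjacent members over 100 kb apart the share was 16.0% (151 of 942). Neighbours can lie in the same transcript, so these pairs are not independent. A few runs supply many of the identical pairs. In runs on chromosomes 2 and 9, 3 of 3 members each had the same lists. In the runs on X it was 5 of 6 and 5 of 5. The share without these runs was not computed. Joined over gaps of up to 5 kb, 108 members (9.50%) fell into 48 runs, of which 6 held at least 3 members. The runs described next were chosen after their values were seen.

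In 3 of these runs the local input background was raised at the strongest peak of each list in each region. It is taken over windows of up to 10 kb, so it does not place the input at the peak itself. On chromosome X from 35262737 to 35273101, 6 members lay within 10365 bases. Of these, 5 had peaks in control replicate 3 and diabetic replicates 1 and 3, and 1 in diabetic replicates 1 and 3. The local input background was 1.44 to 14.9 times the genome-wide floor at these 17 strongest peaks, and their folds ran from 1.36 to 4.42. Median pileups were 130, 135 and 190 in control replicate 3 and diabetic replicates 1 and 3. Control replicates 1 and 2 and diabetic replicate 2 had no region anywhere in this stretch. Called m6A peaks were thus found along this stretch in 3 animals, from both groups, and in none of the other 3.

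A second run on X, from 106174314 to 106180078, had 5 members, all with peaks in control replicate 1 and diabetic replicates 1 and 3. Folds on the same basis were 1.97 to 4.93, with a second peak of control replicate 1 at 5.07 in one region, and the background was 2.37 to 5.60 times the floor at the 15 strongest peaks. It includes the member with the most summits, 5 in diabetic replicate 3, from 106178684 to 106179558, with folds of 2.24 in control replicate 1 and 2.90 and 3.43 in diabetic replicates 1 and 3. A further member with the same 3 lists lay from 106167083 to 106167574. On chromosome 9 from 40516356 to 40518361, 3 members again had these same 3 lists, with folds of 2.53 to 3.75 and a background 1.73 to 13.7 times the floor. Over the 35 regions with this combination, which include the members of these runs, 50.9% of peaks had a background over 10% above the floor. It was 16.7% for shared regions. The share was 50.5% for control replicate 2 with diabetic replicates 1 and 2, 37.8% for control replicate 2 with diabetic replicates 1 and 3, and 31.5% for control replicate 1 with diabetic replicates 2 and 3. It was 5.87% for control replicate 3 with all 3 diabetic replicates, and from 4.96 to 25.7% in the other combinations of the rule. Over all members the share of peaks with such a background differed by list. It was 28.6, 31.5 and 7.52% in control replicates 1, 2 and 3, against 14.4, 16.8 and 16.9% at shared regions. In diabetic replicates 1, 2 and 3 it was 14.0, 11.7 and 17.6%, against 20.3, 15.4 and 16.4%. Such a background in at least 1 list was found at 20.6% of all members and 25.6% of shared regions, which have more lists each. The local input background in the animals with peaks was thus raised along these runs. Input levels in the animals without peaks are not in the peak lists, so the part of RNA abundance in the presence of these peaks was not tested.

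**Figure D4:**
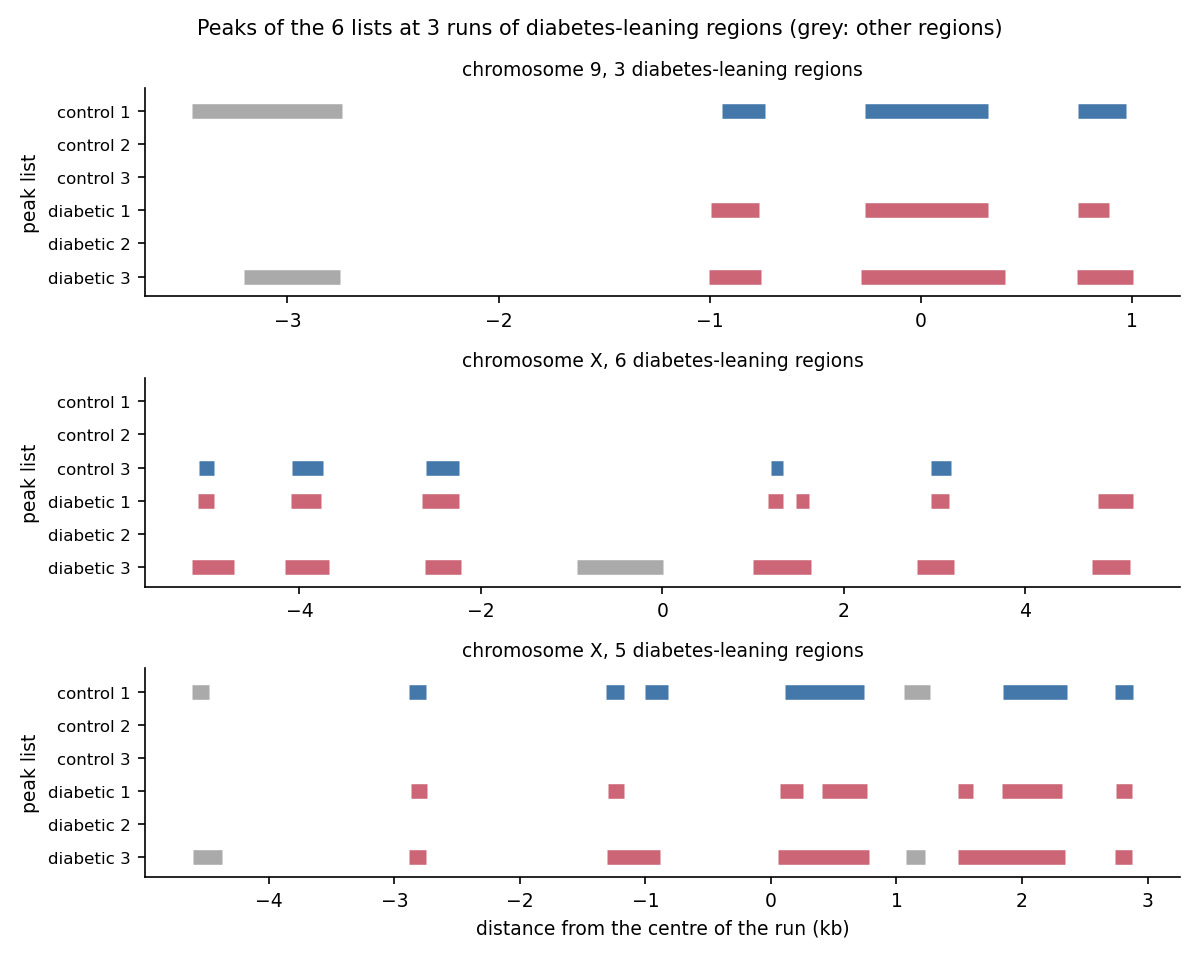
Called regions of each peak list at 3 runs of diabetes-leaning regions, by distance in kb from the centre of the run (blue, control; red, diabetic; grey, regions outside the rule). Diabetic replicates 1 and 3 hold peaks in all 3 runs, joined by control replicate 3 in the first X run and control replicate 1 in the other 2, and diabetic replicate 2 holds none.

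All 3 union regions of the mitochondrial sequence (MT) were diabetes-leaning, and they too were picked out after their values were seen. The region from 4566 to 4904 had the highest pileup of all members. It reached 2722 in control replicate 3 and 3460, 3703 and 4443 in diabetic replicates 1, 2 and 3, yet its folds were 1.63, 1.88, 2.04 and 1.62. The regions from 13276 to 13532 and from 13720 to 13877 were held by diabetic replicates 1 and 2, with folds of 1.48 and 1.59 in the first and 1.70 and 1.50 in the second. Coverage in IP and input was very high at these regions, and their folds were near the bottom of each list.

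The 1 Mb window with the most diabetes-leaning regions was chromosome 18 from 30000001 to 31000000, with 7 among 93 union regions. Its 7.53% share is below the 9.12% of the whole union. Peaks in control replicate 3 and diabetic replicates 2 and 3 were found from 30006305 to 30006555 (folds 4.60, 3.42 and 3.24) and from 30012557 to 30012795 (3.31, 2.90 and 2.00). Control replicate 3 and all diabetic lists held the regions from 30436210 to 30436445 (2.69, 3.30, 2.22 and 2.85) and from 30551464 to 30551912 (3.0, 3.59, 3.30 and 3.62). The remaining regions had no control peak. They lay from 30426206 to 30426629 (2.64 and 2.15 in diabetic replicates 1 and 2), from 30496708 to 30497051 (2.56 and 2.28 in the same) and from 30879693 to 30879840 (2.46 and 2.43 in replicates 2 and 3). Unlike the runs on X, this window mixed 4 combinations of lists.

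A test used the shared regions beside the members. The rule did not use the values of these shared regions, but they were chosen by nearness to members. Neighbours can lie in the same transcript, so their ranks may carry the selection with them and do not give independent evidence. Within 10 kb of a diabetes-leaning region lay 555 regions found in all 6 lists, so each has a value in every animal. They were ranked among the 7098 shared regions of each library. The median percentile rank of their fold enrichment was 47.5, 45.7 and 46.5 in control replicates 1, 2 and 3 and 47.6, 47.2 and 47.9 in diabetic replicates 1, 2 and 3. The values of the groups overlap, since control replicate 1 lay above diabetic replicate 2. Means were 46.5 ± 0.904 and 47.6 ± 0.371 (SD, n = 3 each), a difference of 1.03 percentile points (exact two-sided permutation p = 0.2, Benjamini-Hochberg adjusted p = 0.6 over 3 measures; the smallest possible p is 0.1). Pileup ranks differed by 0.392 points (49.2 ± 0.958 and 49.6 ± 1.64; exact permutation p = 0.8, adjusted 0.8). In both measures the medians of the groups overlapped. When the mean rank over the 555 regions was used in place of the median, the 3 diabetic animals all lay above the 3 controls, by 1.07 points for fold, 1.16 for pileup and 0.589 for background (exact two-sided permutation p = 0.1 in all 3 measures, which is as low as this design goes). For shared regions within 1 kb of a member, 198 in number, the difference in fold rank was 2.87 points (exact permutation p = 0.1), and for those within 100 kb it was -0.232 points (exact permutation p = 0.5).

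Single flanking regions were also counted. In 69 of the 555 (12.4%) the fold rank was higher in all 3 diabetic than in all 3 control libraries, against 9.3% of all shared regions, and in 41 (7.39%) it was lower in all 3, against 7.99%. For pileup rank the counts were 90 (16.2%) higher, against 10.6% of all shared regions, and 57 (10.3%) lower, against 9.97%. Both shares of regions higher in the diabetic libraries were above those of all shared regions, and the shares of lower regions were close to theirs. These differences in share were not tested, since flanking regions of a transcript are not independent of each other or of the members beside them. In input the groups overlapped: a background over 10% above the floor was found at 15.7, 17.1 and 19.1% of flanking regions in controls and 22.9, 17.7 and 19.3% in diabetic animals. Shared regions farther away had 14.5, 16.8 and 16.8% in control replicates 1, 2 and 3, and 20.1, 15.3 and 16.1% in diabetic replicates 1, 2 and 3, so diabetic replicate 1 was the highest in both sets. Most shared regions sat at the floor and tied in background rank, whose group difference was -0.437 points (40.6 ± 0.937 and 40.1 ± 1.23; exact permutation p = 0.7, adjusted 0.8).

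**Figure D5:**
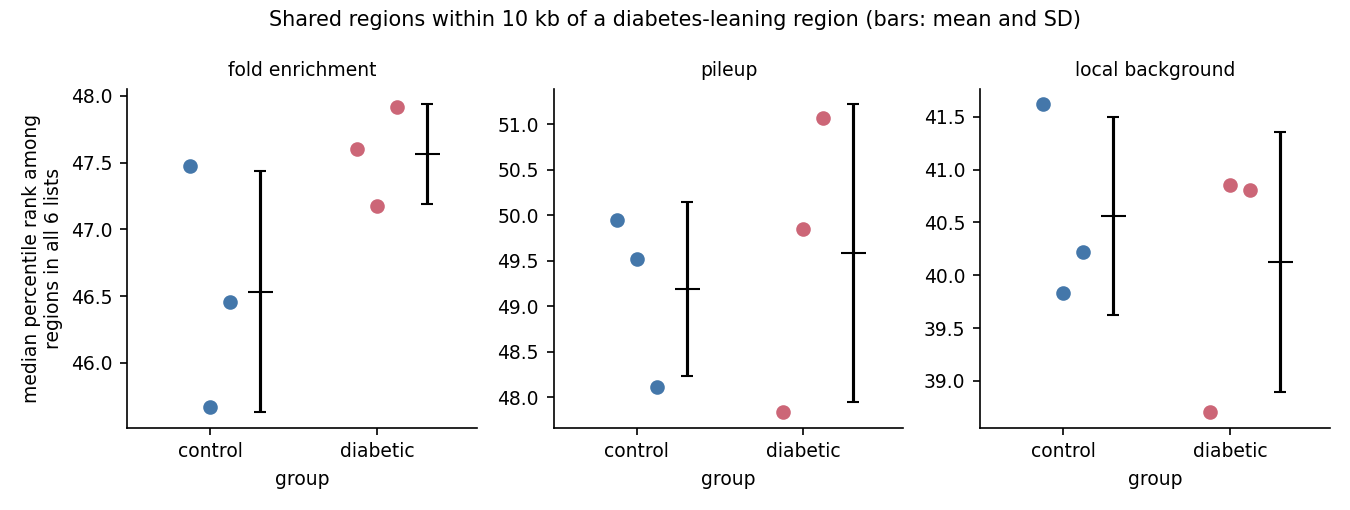
Median percentile rank, among the 7098 regions in all 6 lists, of the 555 shared regions within 10 kb of a diabetes-leaning region, for fold enrichment, pileup and local background; points are animals, bars the mean and SD (n = 3), and the axes do not start at 0. The medians of control and diabetic animals overlap in all 3 measures.

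The members were also followed through stricter thresholds on the same positions. When peaks under a −log10 q of 5 were dropped, 831 of the 1137 still met the rule and 281 fell under 2 diabetic lists. With a fold enrichment of at least 3, 345 still met it, 761 had fewer than 2 diabetic peaks and 388 had no peak left. A total of 25 and 31 regions lost their control peak under these thresholds and became diabetic-only. With the fold threshold 792 of the 1137 members thus no longer met the rule, and 234 kept every peak they had.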

How the data were processed

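MeRIP-seq peak lists of 6 retinal IP libraries were used, and the 6 input libraries entered as their background. Tools listed, without order or role, in the submitters' processing notes are MACS2 2.1.0, CASAVA, BWA 0.7.12 and fastp 0.19.11. The genome build is not given in the sources used here. Per the file headers, the authors called each animal separately against its own input at a q of 0.05, with an effective genome size of 61536640 bases, all duplicates kept and libraries scaled down to the smaller of each pair. The deposited values are pileup (a coverage signal at the summit), −log10 p and −log10 q, and fold enrichment, a ratio of pileup to background. That background is local input, or the genome-wide floor where the floor is higher. The labels' titles number the replicates, and nothing in them pairs animals across groups. Both −log10 columns carry a spreadsheet error as header and were told apart by column order and values.

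Lines of 1 region were joined, taking the summit with the highest −log10 p. Background was computed back from pileup and fold, each plus 1, and divided by the floor, which is reads of the smaller library times extension over genome size. Group differences were tested with exact two-sided permutation over libraries. Regions named were the 6 per class with the highest lowest within-list fold percentile, the widest, the one with most summits, the highest pileup, the farthest from a shared region, and those of the fullest 1 Mb window. The labels give each IP library its own body weight, so libraries were taken as separate animals. The members and lists were chosen with earlier results of these data known. The counting was tested on simulated lists. Alternatives changed threshold, list length, overlap, summit windows, chromosomes, libraries and flanking distance. Python 3.11.15, pandas 2.3.3 and scipy 1.17.1 were used.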

Additional observations from a re-analysis of the deposited data

How the results depend on the processing

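Diabetes-leaning regions numbered 761 to 1661 in the 8 alternatives that kept all libraries. Leaving out 1 library gave 510 to 1796 of them, and 81 to 852 control-leaning regions. Leaving out 1 control library gave 698 to 803 regions in 3 diabetic and 1 control list and 340 to 588 in 2 diabetic lists alone. The class in 3 diabetic and 1 control list had 261 regions when folds under 3 were dropped and 228 in lists of equal length. Control-leaning regions numbered 690 with reciprocal overlap of 50% and 769 with summit windows. The ratio of diabetes-leaning to control-leaning regions was 2.52 as reported, 1.58 when folds under 3 were dropped, 1.42 with strict presence and lenient absence, and 1.21 in lists of equal length. Testing fewer peaks or libraries changes such counts by its own construction, and the cause was not tested.

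No exact test of the flanking ranks passed 0.05 under any alternative run, which 3 against 3 animals cannot reach. The fold rank difference of 1.03 was 2.87 within 1 kb (exact p = 0.1), -0.232 within 100 kb, and 0.601 to 1.50 without 1 library. With means in place of medians the fold, pileup and background differences were 1.07, 1.16 and 0.589, each with exact p = 0.1 and no overlap of the groups. The pileup rank difference of 0.392 was 1.52 within 1 kb (exact p = 0.5) and 0.232 within 100 kb, and ranged from -0.352 to 1.27 without 1 library, below 0 without control replicate 3 (-0.147) or diabetic replicate 3. The background rank difference was -0.804 to 0.274 without 1 library, above 0 without control replicate 1 (0.0927) or diabetic replicate 1. Under the replicate block the differences were 1.03, 0.392 and -0.437 by construction, with exact sign-flip p = 0.25, 0.75 and 1 (smallest possible 0.25). The numbers did not pair the samples: deviations of fold rank from the group mean over 7098 shared regions correlated at -0.214, -0.0240 and 0.0685 for same-numbered libraries, and 1 of the 6, diabetic replicate 3, correlated best with its own number. The share on chromosome X, an alternative set added after seeing the data, was 3.21 to 5.65% over all alternatives. Depth limits all absences: weaker enrichment than the weakest calls was not detectable in the lists.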
